A study of Mus musculus with 6 samples.

Results

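The genes described here handle arginine in macrophages: its uptake, its conversion to nitric oxide and back through citrulline, and the branch that leads through ornithine to polyamines. The set is 10 genes, Slc7a2, Arg1, Arg2, Nos2, Gch1, Ass1, Asl, Odc1, Srm and Sat1, chosen by name. Their probes are the non-control probes that carry a RefSeq accession of one of them, 15 of the 39429 probes on the array, and all 10 genes had at least 1. Probes were kept where both arrays of one or the other group flagged them as well above background, which left 12 of the 15 probes and 8 of the 10 genes, among 18443 probes and 10948 genes kept in all. The 2 genes without a kept probe were the arginases Arg1 and Arg2.

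The study asked what whole-glucan particles (WGP) do to gene expression in M2 macrophages. The WGP group was bone-marrow-derived macrophages of C57BL/6 mice aged 6 to 8 weeks, polarized to M2 and then kept for 6 h in complete DMEM with WGP. The medium group was the same kind of cell, from the same strain and age and also polarized, kept for 6 h in complete DMEM without WGP. The polarizing agent, the dose of WGP and the number of mice are not given in the sources used here. WGP are yeast cell wall particles made mostly of beta-glucan, which macrophages take up through the receptor Dectin-1.

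Arginine stands at a branch point in macrophages. Nitric oxide synthase turns it into nitric oxide and citrulline, and arginase splits it into urea and ornithine, the starting material of proline and polyamines. Inducible nitric oxide synthase is the usual mark of macrophages activated by microbial products, and Arg1 is the usual mark of mouse macrophages polarized with interleukin-4.

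Each group had 3 deposited arrays, of which 2 were independent: in both groups the third file held the same median signal as the first at all 44397 spots, so replicate 3 was left out and n = 2 per group. Each slide held 1 WGP and 1 medium array, always at the same places, so the place on the slide and the treatment cannot be told apart, while the slide can be fitted as a block. The 75th percentile of the processed signal was 59.2 and 56.1 with WGP and 85.8 and 68.6 in medium, and 45.0% to 50.7% of probes were well above background on an array. The processed signal was divided by that percentile and put on the log2 scale to give a level, so that 0 is the 75th percentile of the array, and a change is the WGP mean minus the medium mean of these levels. The labels do not say whether replicates were separate cultures or mice. The p-values therefore cover the spread between these arrays alone, and that spread may be technical. In bulk RNA, fewer cells of a type and less RNA per cell cannot be told apart. Of 8 macrophage markers with a probe, 7 were well above background on every array, and 5 changed: Cd14 was higher with WGP (1.17), and Lyz2 (-0.47), Fcgr1 (-1.19), Mertk (-1.89) and Cd163 (-3.21, not well above background with WGP) were lower. Of 10 markers of alternative activation, 3 passed that limit on every array (Mrc1, Clec10a and Mgl2), and 6 passed it on none, Arg1 among them, so the label M2 is borne out by few of these markers in either group. Of the 3, Clec10a (-4.03) and Mrc1 (-0.64) were lower with WGP, and Mgl2 (-0.17) did not pass the test. Markers of other cells were mixed. The T-cell genes Cd3e and Lck and the neutrophil genes S100a8, S100a9, Elane and Camp were well above background on every array. So were the fibroblast genes Col1a1, Col1a2 and Dcn. The T-cell genes Cd3d, Cd3g and Cd2, the neutrophil genes Ngp and Ltf and the fibroblast gene Pdgfra stayed below that limit throughout. All 5 mast-cell and basophil genes stayed below it too. The neutrophil gene Mpo passed it on 1 array of each group. The fibroblast gene Col3a1 passed it in medium alone and was lower with WGP (-1.09, limma adjusted p = 0.00535). The summed level of the T-cell list was 3.60 and 4.17 with WGP and 3.83 and 3.95 in medium, that of the neutrophil list 4.33 and 4.29 with WGP and 4.57 and 4.26 in medium, and that of the fibroblast list 3.51 and 3.59 with WGP and 3.91 and 3.39 in medium, so the groups overlapped in all 3. Most of each of these sums came from a single gene (Cd3e, Elane and Col1a2 in turn). Some lists moved with the treatment. The macrophage markers summed to 10.91 and 10.69 with WGP and 10.53 and 10.49 in medium. This sum came mostly from Csf1r, which did not pass (limma adjusted p = 0.0589), while most macrophage markers that changed were lower. The summed level of the 5 B-cell markers was -1.72 and -1.65 with WGP and -0.06 and -0.37 in medium, with Ms4a1 and Pax5 below the limit throughout. That of the 5 dendritic-cell markers was 7.66 and 7.74 with WGP and 6.91 and 6.33 in medium, mostly from Siglech, with Flt3, Xcr1 and Clec9a below the limit throughout. The 3 erythroid markers with a probe summed to -2.16 and -2.08 with WGP and -1.39 and -1.49 in medium. The alternative activation markers summed to 6.01 and 6.01 with WGP and 6.64 and 6.28 in medium, mostly from Mgl2. The part of these shifts in the results below was not tested.

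Of the 8 genes tested, 6 changed with WGP at an adjusted p under 0.05 (limma, Benjamini-Hochberg over all genes tested). Ass1, Odc1, Slc7a2, Gch1 and Srm were higher with WGP and Sat1 was lower, while Nos2 and Asl did not pass. Over all 10948 genes, 4440 passed, which is 40.6%, with 23.2% higher and 17.4% lower. A call was thus common in these data. Ass1, Odc1 and Gch1, all well above background on every array, changed by more than 2 on the log2 scale. The median change of the 8 genes was 1.61, or 1.51 with Slc7a2 at its bound, beside a median of 0.03 over all genes tested. One gene, Slc7a2, passed the background filter only through its WGP arrays. The groups did not overlap for the 6 called genes, as was so for 75.1% of all genes. All 6 calls held with the slide as a block, where 37.3% of all genes passed. By single probes, 9 of the 12 kept probes passed, 8 higher and 1 lower, against 34.2% of all probes.

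**Figure D1:**
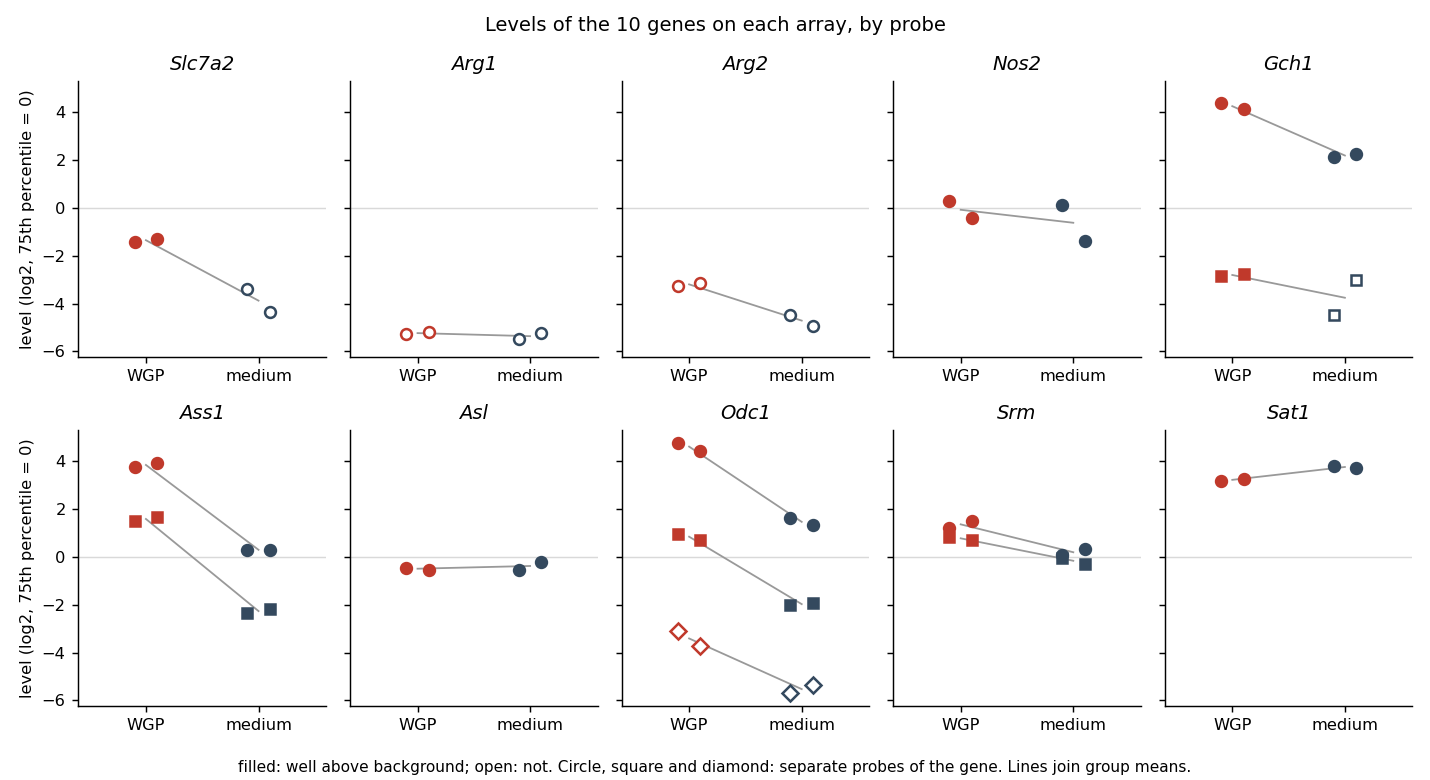
Level of each of the 10 genes (y axis, log2 of the processed signal relative to the array's 75th percentile) on the 2 WGP arrays (red, left) and the 2 medium arrays (blue, right), with a separate symbol for each probe of a gene and lines joining the group means. Filled symbols are well above background. The WGP arrays of Slc7a2, Ass1, Odc1, Gch1 and Srm lie above the medium arrays with every probe, some of them open, those of Sat1 lie below, and Arg1 and Arg2 have only open symbols.

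Of the 3 arginine transport genes tested beside Slc7a2, 2 were higher with WGP and 1 was lower, beside 23.2% and 17.4% of all genes. Slc7a2 is left out of this count because it passed the background filter only through its WGP arrays. Slc7a2, which encodes the cationic amino acid transporter CAT2, had a processed signal of 22.0 and 23.0 on the WGP arrays, against 8.13 and 3.34 on the medium arrays. Both WGP arrays were well above background and neither medium array was. On the processed signal, Slc7a2 RNA was therefore at least 3.64-fold higher with WGP (1.86 on the log2 scale). For this bound, medium replicate 2 was raised to the dimmest level well above background on that array (-3.04). Medium replicate 1 kept its measured level (-3.40), as the dimmest such level there was lower (-3.55). The bound is no minimum under normexp, where the changes given below were smaller. The measured levels were -1.36 ± 0.10 with WGP and -3.88 ± 0.68 in medium (SD, n = 2 each, adjusted p = 0.00990 by limma). The change was 1.97 on slide 1 and 3.07 on slide 2. Without WGP replicate 2 the gene no longer passed (adjusted p = 0.0554), and it was 0.36 to 1.39 under the 3 background corrections with normexp, where it still passed.

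Of the 8 further transport genes listed for arginine and its relatives, 3 had a kept probe. All 3 changed, beside 40.6% of all genes. Slc7a1, which encodes the related transporter CAT1, rose 2.77-fold (1.47 ± 0.10, SE, limma adjusted p = 0.00264), with levels of 2.26 and 2.32 with WGP against 0.77 and 0.88 in medium. Slc3a2, the heavy chain that carries several amino acid exchangers to the membrane, rose 2.31-fold (1.21 ± 0.13, adjusted p = 0.00575). Slc7a7, the light chain of one of these exchangers, which exports arginine, fell by 0.73 ± 0.12 (adjusted p = 0.0142), at 3.46 and 3.67 with WGP against 4.29 and 4.29 in medium.

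The arginases were not measurable in either group. Arg1 gave 1.51 and 1.55 on the WGP arrays and 1.91 and 1.82 on the medium arrays, and its only probe was not well above background on any of the 4. Arg2, the mitochondrial arginase, gave 6.17 and 6.37 with WGP against 3.80 and 2.25 in medium, again below the limit on all 4 arrays. Neither has a fold change here, and a low reading from 1 probe does not show that the RNA was absent.

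Nos2, the inducible nitric oxide synthase, was well above background on all 4 arrays but did not pass the test. Its signal was 71.0 and 41.5 with WGP, against 93.9 and 26.2 in medium, so the groups overlapped and the 2 medium arrays lay further apart than the group means. The change was 0.54 ± 0.58 (SE, limma adjusted p = 0.497), with an interval of -1.05 to 2.14 at 95% confidence, which holds no change as well as a rise of more than 4-fold. It was 0.13 on slide 1 and 0.95 on slide 2, and -0.22 without medium replicate 2.

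Among the other genes of nitric oxide synthesis and signalling, 7 of 10 listed were tested. Of these 2 rose and 2 fell, beside 40.6% of all genes called. Nos3, the endothelial synthase, was 2.15-fold higher with WGP at low levels (-1.38 and -1.40 with WGP, -2.40 and -2.59 in medium, limma adjusted p = 0.00511), with 1 of the 2 medium arrays above background. With normexp it was 0.39 with the 75th percentile, and it did not pass with quantile normalization (0.29, adjusted p = 0.0555) or with an offset of 1 (0.91, adjusted p = 0.0637). The summed level of 5 endothelial markers was 5.80 and 6.18 with WGP and 5.97 and 5.60 in medium. It came mostly from Kdr, and the groups overlapped in this sum. Of the 5, Pecam1 alone did not overlap. It was higher with WGP (-0.75 and -0.65, against -0.98 and -0.95 in medium) and did not pass (limma adjusted p = 0.0997). Cyb5r3, an NADH-dependent reductase, rose 2.50-fold (1.32 ± 0.12, adjusted p = 0.00385). Nostrin, which binds the endothelial synthase and moves it off the membrane, was, on the processed signal, at least 4.80-fold lower with WGP, where it was no longer well above background (adjusted p = 0.00221). With normexp its change was smaller, at -0.26 (adjusted p = 0.0519) with the 75th percentile, -0.37 with quantile normalization and -0.98 with an offset of 1. Nosip, another partner of the synthases, fell by 0.44, with an adjusted p of 0.0385 that became 0.0529 with the slide as a block.

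Gch1, GTP cyclohydrolase, catalyses the first and rate-limiting step in the synthesis of tetrahydrobiopterin, the cofactor that every nitric oxide synthase needs. Its brighter probe gave 1220 and 970 with WGP, against 376 and 321 in medium. The groups lay well apart, and the RNA was 4.17-fold higher with WGP (levels 4.24 ± 0.18 with WGP and 2.18 ± 0.07 in medium, SD, n = 2 each, change 2.06 ± 0.13, SE, limma adjusted p = 0.00225). A dimmer probe gave 8.12 and 8.33 with WGP against 3.81 and 8.43 in medium, where it was not above background. After scaling its WGP levels (-2.87 and -2.75) lay above those in medium (-4.49 and -3.02), and it did not pass (adjusted p = 0.227 over all probes).

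Of the other genes of the cofactor's pathway, all 7 listed were tested, none rose at the threshold and 3 fell. Over all genes 40.6% were called, 23.2% higher and 17.4% lower. Gchfr, whose protein binds GTP cyclohydrolase and inhibits it, was 2.05-fold lower with WGP by its measured levels (-2.67 and -2.50 with WGP, not well above background, and -1.48 and -1.61 in medium, limma adjusted p = 0.00625). Under the 3 normexp corrections Gchfr did not pass (0.04, -0.10 and -0.22). Pts, pyruvoyltetrahydropterin synthase, was at least 1.61-fold lower on the processed signal (adjusted p = 0.0491), but not under normexp, with changes of 0.13, -0.03 and 0.05. Spr, sepiapterin reductase, fell by 0.43 ± 0.10 (adjusted p = 0.0328). Pts and Spr did not pass with the slide as a block (adjusted p = 0.0686 and 0.0573).

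Ass1, argininosuccinate synthase, joins citrulline and aspartate in the first step of remaking arginine from citrulline, and it had the largest change of the 8 genes tested. Its brighter probe gave 791 and 852 with WGP, against 105 and 83.8 in medium. The 2 medium levels were the same to 2 decimals (0.29) and the WGP levels were 3.74 and 3.92. The RNA was 11.7-fold higher with WGP (3.54 ± 0.11, SE, limma adjusted p = 0.00129, interval 3.24 to 3.85 at 95% confidence), which ranked it 52 of 10948 genes by change, from the highest down. Its dimmer probe gave 169 and 175 with WGP, against 16.9 and 15.0 in medium, a 14.4-fold difference (adjusted p = 0.00250 over all probes).

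Asl, argininosuccinate lyase, which releases arginine in the next step, did not pass. Its signal was 43.3 and 38.4 with WGP, against 58.7 and 58.8 in medium, which after scaling gave levels of -0.45 and -0.55 with WGP and -0.55 and -0.22 in medium. The groups overlapped, and the change was -0.11 ± 0.15 (SE, limma adjusted p = 0.570), with an interval of -0.52 to 0.29. The Ass1 interval lies wholly above it.

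Of the 8 further genes listed for ornithine, agmatine and creatine synthesis, 5 were tested. None rose at the threshold and 2 fell, beside 40.6% of all genes called. The 2 that fell belong to creatine synthesis, another use of arginine. Gatm, which moves the amidino group of arginine to glycine, was 2.16-fold lower with WGP (-0.54 and -0.24 with WGP, 0.76 and 0.69 in medium, limma adjusted p = 0.00806). Gamt, which methylates its product to creatine, was 3.02-fold lower (2.91 and 3.04 with WGP, 4.58 and 4.55 in medium, adjusted p = 0.00228). Of 4 proline genes tested, 1 changed: Aldh4a1, of proline breakdown, fell by 0.60 ± 0.10 (adjusted p = 0.0142).

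Odc1, ornithine decarboxylase, makes putrescine and is the rate-limiting enzyme of polyamine synthesis. Its brightest probe gave 1610 and 1210 with WGP, against 261 and 170.0 in medium. Its RNA was 8.82-fold higher with WGP (levels 4.60 ± 0.24 with WGP and 1.46 ± 0.21 in medium, SD, n = 2 each, change 3.14 ± 0.18, SE, limma adjusted p = 0.00193), and the change was 3.16 on slide 1 and 3.12 on slide 2. A dimmer probe gave 115 and 92.2 with WGP against 21.2 and 17.9 in medium, a 7.04-fold difference (adjusted p = 0.00266 over all probes), and the third probe of the gene was below the limit on all 4 arrays. Both measurable probes thus placed every WGP array above every medium array.

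Srm, spermidine synthase, uses putrescine and decarboxylated S-adenosylmethionine to make spermidine. It gave 138 and 157 with WGP, against 89.9 and 85.0 in medium, and was 2.24-fold higher with WGP after scaling (levels 1.22 and 1.48 with WGP, 0.07 and 0.31 in medium, change 1.16 ± 0.15, SE, limma adjusted p = 0.00894). The second probe gave a 1.92-fold difference (adjusted p = 0.0148 over all probes). Srm did not pass without WGP replicate 2 (adjusted p = 0.0530) or with no filter on dim probes (0.0508).

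Sat1, spermidine/spermine acetyltransferase, opens the way from spermine and spermidine back to putrescine and out of the cell. It gave 528 and 539 with WGP, against 1200 and 885 in medium, and was 1.45-fold lower with WGP (levels 3.16 and 3.26 with WGP, 3.81 and 3.69 in medium, change -0.54 ± 0.11, SE, limma adjusted p = 0.0228). The groups did not overlap, but this was the weakest of the 6 calls: it did not pass when any 1 of the 4 arrays was left out (adjusted p 0.0728 to 0.122), without the filter on dim probes (0.116) or with scaling to the median (-0.37, 0.0953).

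**Figure D2:**
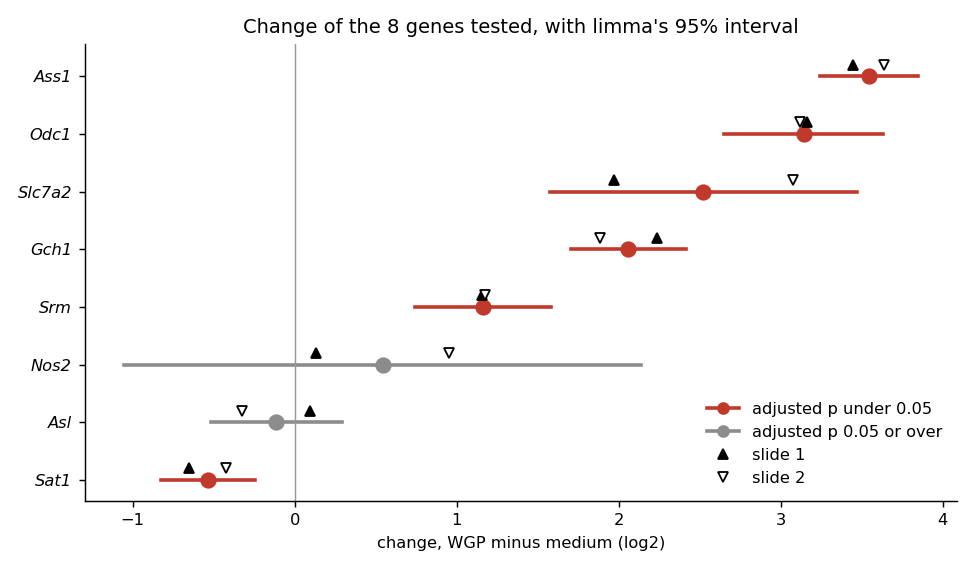
Change of the 8 genes tested (x axis, WGP minus medium, log2) with limma's 95% interval as a bar, and the difference on each slide as a triangle. Ass1 (3.54) and Odc1 (3.14) lie farthest to the right, the interval of Sat1 (-0.83 to -0.25) lies below 0, and those of Nos2 and Asl span 0.

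The wider polyamine list held 21 genes, of which 18 were tested, with 6 higher and 5 lower, beside 40.6% of all genes called. The largest rise was that of Azin1, whose protein takes up antizyme and so spares ornithine decarboxylase from degradation. Azin1 levels were 6.20 and 6.19 with WGP against 4.07 and 4.26 in medium (4.09-fold, limma adjusted p = 0.00185). The second Azin1 probe rose too (2.48, limma adjusted p = 0.00840 over all probes). Its mean level in medium was -3.34, where the dimmest levels well above background were -3.55 and -3.04, so the size of that change is uncertain. Oaz2, an antizyme, fell by 0.44 (adjusted p = 0.0384, and 0.0650 with the slide as a block). The brighter antizyme Oaz1 did not pass (mean level 8.13 with WGP and 8.09 in medium, change 0.04, adjusted p = 0.790). Amd2, a copy of S-adenosylmethionine decarboxylase, which supplies the aminopropyl groups, was 2.01-fold higher (adjusted p = 0.00450), and its 3 kept probes changed by 1.01 to 1.05. Amd2 is nearly identical to Amd1, so its probes may read both. The remaining 4 rises were small: Dhps, Dohh and Eif5a, of the hypusine modification that uses spermidine, and Mat2a, which makes S-adenosylmethionine, changed by 0.43 to 0.52 (adjusted p 0.0270 to 0.0305), and none passed with the slide as a block.

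Genes of polyamine breakdown and transport made up the other falls. Sat2, a relative of Sat1, was 2.63-fold lower with WGP (-2.21 and -2.39 with WGP, -0.89 and -0.92 in medium, limma adjusted p = 0.00332). Paox, a polyamine oxidase, fell by 0.62 (adjusted p = 0.0146), and Atp13a2, a lysosomal polyamine exporter, by 0.57 (adjusted p = 0.0140). Slc18b1, a vesicular polyamine transporter, was at least 2.24-fold lower on the processed signal and no longer well above background with WGP (adjusted p = 0.0433). Slc18b1 passed in 9 of 16 alternative settings and was -0.10 under normexp with the 75th percentile (adjusted p = 0.388). It did not pass without WGP replicate 2, medium replicate 1 or medium replicate 2 (adjusted p = 0.0526, 0.153 and 0.154). The probes of spermine synthase, Sms, disagreed: the brightest did not pass (0.10, adjusted p = 0.495), while 2 dimmer ones were higher by 0.71 and 0.80 (adjusted p = 0.0313 and 0.0173 over all probes). The 2 probes of Smox, spermine oxidase, had opposite signs (0.27 and -0.30), and neither passed.

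**Figure D3:**
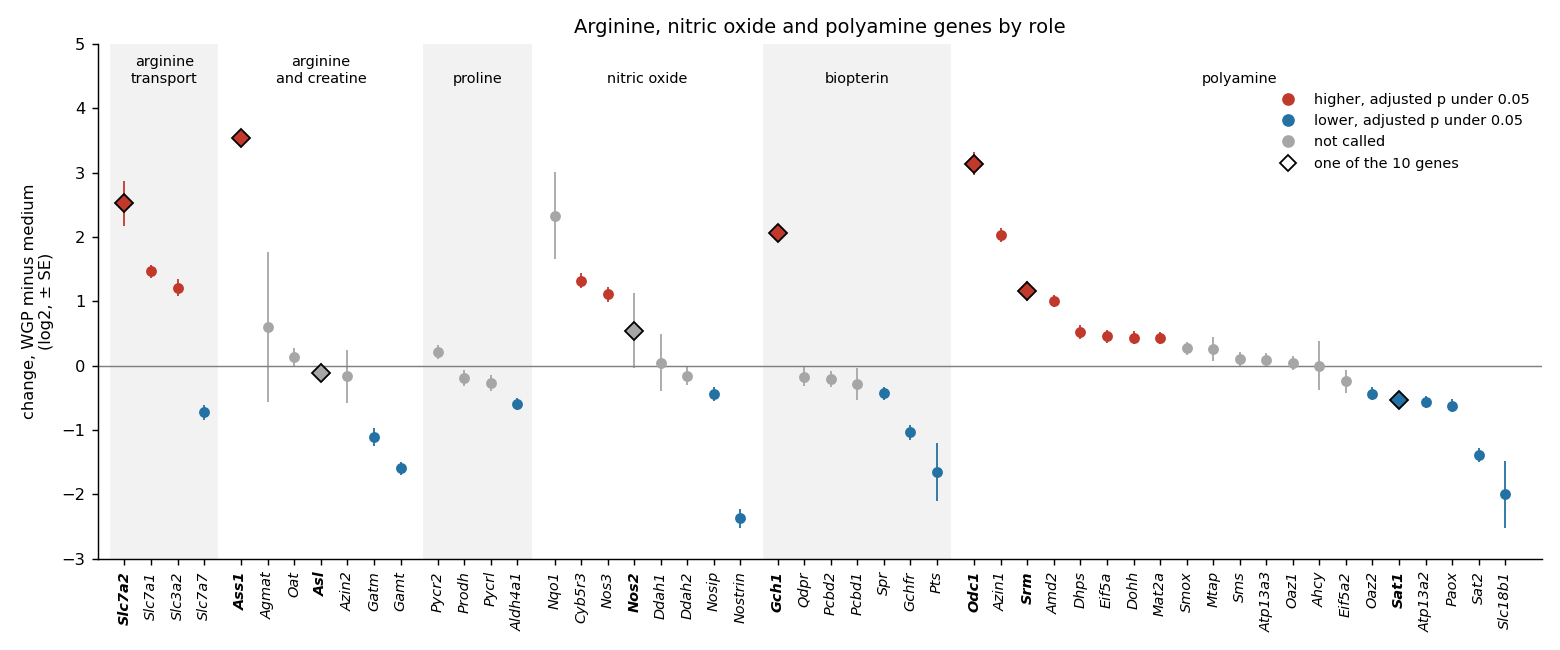
Change of the 8 genes tested (diamonds) and 43 of the 44 other tested genes of the pathway list (circles), grouped by role, as WGP minus medium on the log2 scale with the standard error (y axis). Red and blue mark genes higher and lower at an adjusted p under 0.05, and grey marks the rest. The biopterin group has 1 red point, Gch1, above 3 blue ones, and the polyamine group has red points above 0 and blue points below it. Over all genes 40.6% were called.

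Over the whole list of 60 other genes of the pathway, 44 were tested, and 24 passed, 10 higher and 14 lower, against 40.6% of all genes. Their median change was -0.16, with or without the 5 genes at their bounds. With the slide as a block 18 of the 44 passed, and 8 called genes dropped out (limma adjusted p 0.0524 to 0.0686). Nqo1, a quinone reductase not above background in medium, came in (limma adjusted p 0.0574 without the block and 0.0128 with it), as did 1 other gene. On the processed signal Nqo1 was at least 2.41-fold higher with WGP (measured change 2.33). Under the 3 normexp corrections its change was smaller, at 0.44, 0.32 and 1.05. Of the 24, 6 passed under every setting run: Slc7a1, Gamt, Cyb5r3, Azin1, Amd2 and Sat2. When arrays were left out singly, 15 lost the call at least once (adjusted p 0.0513 to 0.219). Slc7a7, Aldh4a1, Nosip, Spr, Oaz2, Dhps, Dohh, Eif5a and Mat2a lost it without each of the 4 arrays in turn, Paox and Atp13a2 without either WGP array or medium replicate 2, Pts and Slc18b1 without WGP replicate 2 or either medium array, and Slc3a2 and Gatm without medium replicate 2. When arrays were scaled by their median instead, all genes had a median change of 0.19, and 72.7% of the called genes were higher, against 57.1% with the 75th percentile, so changes near 0 depend on that choice.

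Promoter sequence was available for 4 of the 10 genes, from RefSeq on GRCm38.p6, as the 250 bases before and 50 after the start of transcription. The windows of the 3 genes with rises are shown because they are the large, repeatable changes for which a sequence was given. They are written 5′ to 3′ on the strand of the gene, with capitals where searched letters match on either strand. Ass1 lies at chr2:31470020-31470319 (plus strand), Odc1 at chr12:17544623-17544922 (plus strand) and Gch1 at chr14:47189364-47189663 (minus strand).
Ass1: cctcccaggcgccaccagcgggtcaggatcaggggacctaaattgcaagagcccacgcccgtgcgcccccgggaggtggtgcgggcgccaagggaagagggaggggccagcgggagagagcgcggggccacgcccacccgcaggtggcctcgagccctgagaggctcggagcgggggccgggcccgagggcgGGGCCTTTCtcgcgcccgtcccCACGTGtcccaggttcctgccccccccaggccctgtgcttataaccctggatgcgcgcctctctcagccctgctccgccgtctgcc
Odc1: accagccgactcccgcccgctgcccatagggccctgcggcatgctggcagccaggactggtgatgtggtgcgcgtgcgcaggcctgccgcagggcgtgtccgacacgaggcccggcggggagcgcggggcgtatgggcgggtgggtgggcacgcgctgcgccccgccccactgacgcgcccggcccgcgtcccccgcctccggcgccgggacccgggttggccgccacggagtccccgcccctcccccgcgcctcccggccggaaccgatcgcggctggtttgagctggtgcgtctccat
Gch1: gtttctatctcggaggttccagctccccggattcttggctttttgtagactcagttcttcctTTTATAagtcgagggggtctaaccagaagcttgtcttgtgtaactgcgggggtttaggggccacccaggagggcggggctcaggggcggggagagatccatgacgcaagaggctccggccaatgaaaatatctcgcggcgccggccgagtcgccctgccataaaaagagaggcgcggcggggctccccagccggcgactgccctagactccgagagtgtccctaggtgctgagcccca

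The searched letters were those of NF-kB (GGGNNTTTC), AP-1 (TGAGTCA), the E-box of MYC (CACGTG), STAT6 (TTC and GAA with 4 free bases between), the ISRE core (GAAANNGAA), the CRE (TGACGTCA) and the TATA box (TATAAA). Both strands were searched, and no matches overlapped. The Ass1 window held the NF-kB letters from base -58 and the E-box from base -36, counted from the start of transcription. These letters occur in 4.36% and 7.15% of the 32851 windows in the table. The Gch1 window held the TATA letters on the opposite strand at base -188, a match found in 13.6% of windows. The Odc1 and Sat1 windows held none of the 7. The GC content was 74.0% for Ass1, 78.0% for Odc1, 60.3% for Gch1 and 60.3% for Sat1, against a median of 52.7%. A match is a description of letters and no site of binding.

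The 5 genes whose levels over the 4 arrays lay nearest to those of Ass1, each centred on its own mean, were Zfp503, A530064D06Rik, Me1, Tgm2 and Fabp3. Their distances from Ass1 were 0.09 to 0.26, beside a median of 3.53 over the 10947 genes searched. They changed by 3.63 to 3.74 on the log2 scale. With 4 arrays in 2 groups, nearness on this measure is mostly an equal change.

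**Figure D4:**
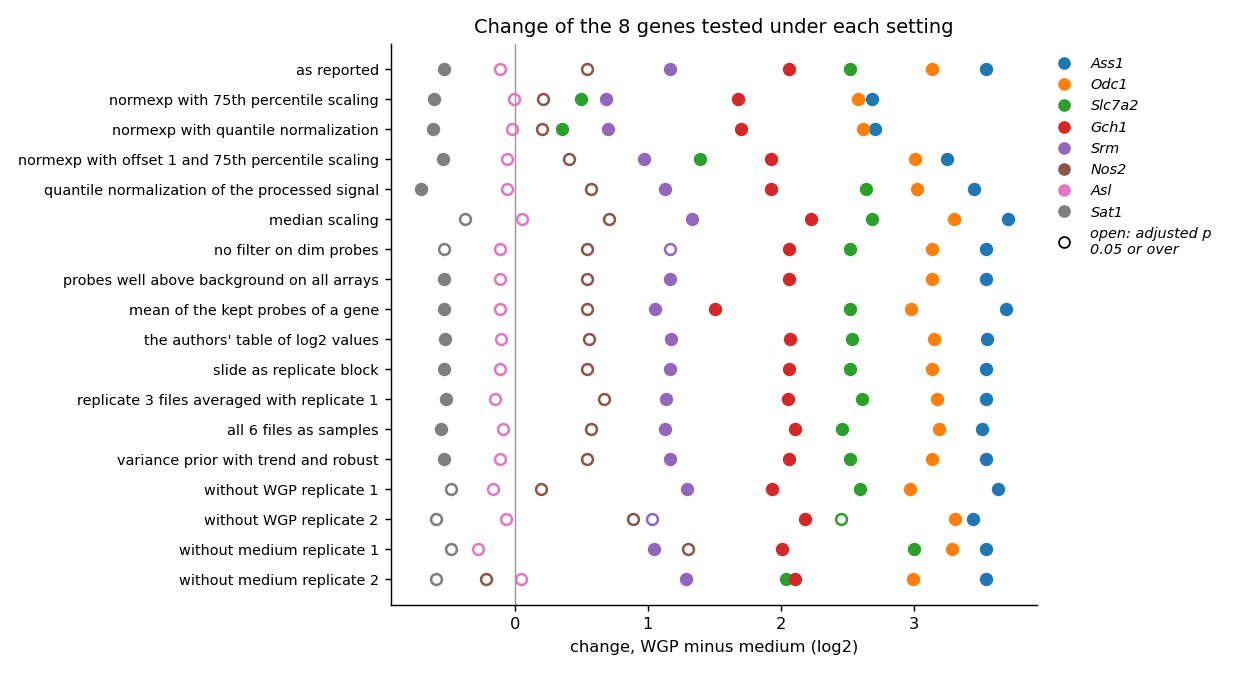
Change of the 8 genes tested (x axis, WGP minus medium, log2) as reported and under each of 17 alternative settings (y axis). Filled points have an adjusted p under 0.05 and open points do not. Ass1, Odc1 and Gch1 are filled in all 17, Sat1 in 11, and Nos2 and Asl in 0.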

How the data were processed

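Total RNA, amplified with Cy3, was measured on 1-colour Agilent arrays. The submitters' processing notes name Agilent Feature Extraction 10.7.3. The report rests on the deposited processed signal intensities, background-subtracted per the file headers. A deposited series table of log2 values served as an alternative: after centring it correlated at 1.00 with the scaled scanner values over 39394 probes, its baseline staying unknown. Replicate 3 was left out: the medium file equalled the mean of medium replicates 1 and 2 within 0.695%, and the WGP file 1.3 times WGP replicate 1 within 0.488%.

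Intensities were scaled to each array's 75th percentile and log2-transformed. Control and outlier spots were dropped. The brightest kept probe with a RefSeq accession stood for a gene (26761 of 39429 probes were named, through the GRCm38.p6 gene table). WGP was compared with medium with limma 3.58.1 in R 4.3.3, with Benjamini-Hochberg adjustment over all genes, a threshold of 0.05, and no covariate. The fit had 2 residual and 2.19 prior degrees of freedom, and was tested on simulated data. The slide matches the replicate number, per the file headers, and replicate deviations correlated at 0.14 between the groups. The members and lists were chosen with earlier results of these data known. Named were all members, the pathway genes that passed, others of that list where their group is described (1 is not reported here), and the 5 genes nearest to Ass1. Alternatives changed the background correction, scaling, filter, probe rule, replicate handling and variance prior. The number of arrays limits the precision.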

Additional observations from a re-analysis of the deposited data

How the results depend on the processing

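Over the 17 alternatives, Ass1 (2.68 to 3.71), Odc1 (2.58 to 3.31) and Gch1 (1.50 to 2.22) kept their direction and passed throughout, Slc7a2 (0.36 to 3.00) passed in 15 of the 16 that could be run for it, Srm (0.69 to 1.33) in 15 and Sat1 (-0.71 to -0.37) in 11. The count of genes called was 4440 as reported, 1532 of 20274 with no filter on dim probes and 7451 with all 6 files as samples, where replicates count more than once. Leaving out 1 array gave 1707 to 3341 genes, 3 to 5 of the members, 5 to 8 of their probes and 9 to 14 of the other pathway genes, the lone array taking its spread from the other group. Without a filter, 5 of the member probes and 12 of the other pathway genes passed, and Arg2, dim on all arrays, passed at 1.51 (adjusted p = 0.0416).

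With the slide as a replicate block, 4087 genes, all 6 members and 18 of the other pathway genes passed. No member changed its call, and 8 of 9 called member probes passed.

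Signs that turned were those of genes with a small change or a dim group. Under normexp with the 75th percentile they were Pts (0.13), Sms (-0.14) and Gchfr (0.038), under normexp with quantile normalization Sms (-0.14), and under normexp with an offset of 1, chosen after seeing the data, Pts (0.049) and Sms (-0.024). Quantile normalization of the processed signal turned Sms (-0.055), scaling to the median Asl (0.051), the mean of a gene's probes Smox (-0.014), and leaving out medium replicate 2 Nos2 (-0.22, against 1.30 without medium replicate 1) and Asl (0.049, against -0.28). The cause was not tested. The normexp settings used the median signal. Naming probes by a gene symbol column was not run.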
